A study of Arabidopsis thaliana with 20 samples.

Results

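psbD, psbC and psbZ are 3 chloroplast genes that encode subunits of photosystem II and are transcribed together from the forward strand of the plastome. They were chosen by identifier as ATCG00270 (psbD), ATCG00280 (psbC) and ATCG00300 (psbZ), 3 of the 133 chloroplast genes and of the 32744 genes in the count files. All of them were counted in every library. The counts come from stranded RNA-Seq, after depletion of ribosomal RNA, of whole rosettes of Arabidopsis thaliana. The plants were wild type of the accession Col-0 and were raised on soil by a robotic growth platform. The 10 libraries labelled N-limiting come from plants given 2.5 mM nitrate, and the 10 labelled N-sufficient from plants given 5 mM. In both, seedlings grew for 8 days before the transfer to the platform and 19 days on it, at a soil water content of 60%. Stratification lasted 3 days in both. For each replicate number, all 32744 values of the N-sufficient file equal those of the N-limiting file. Nitrogen supply could therefore not be compared, and which supply the counts belong to cannot be told from the files. The values describe the spread between the 10 distinct libraries, read from the files labelled N-limiting. The labels and the study give 10 replicates and the text describing the series gives 5. The sources used here do not say whether a library is 1 plant or a pool. The p-values therefore test relations across these libraries only, and the differences between the libraries may be technical.

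Photosystem II splits water and passes its electrons into the photosynthetic chain. psbD encodes D2, which forms the reaction centre together with D1, psbC encodes CP43, an inner antenna protein that carries chlorophyll to the reaction centre, and psbZ encodes a small subunit known from the contact between the core and its outer antenna. The psbD promoter region is known for a promoter that responds to blue light and is read by the plastid-encoded RNA polymerase with the sigma factor SIG5. Transcripts of the operon are processed into several overlapping forms, so the coding regions need not be carried by the same molecules.

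In RefSeq (TAIR10.1, chloroplast), psbD covers positions 32711 to 33772, psbC 33720 to 35141 and psbZ 35751 to 35939, each as a single exon without an intron. The coding lengths are 1062, 1422 and 189 bases. psbD ends inside psbC, and the shared stretch is printed because a read that falls in it belongs to both genes. It is 53 bases long, 4.99% of the psbD and 3.73% of the psbC coding length, on the forward strand at chloroplast:33720-33772. The capitals mark the annotated start codon of psbC at its 5′ end and the stop codon of psbD at its 3′ end:
psbD-psbC overlap: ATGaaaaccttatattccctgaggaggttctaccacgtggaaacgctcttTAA
How such reads were counted is not given in the sources used here, and their part in the psbD and psbC values was not tested. Between psbC and psbZ lie 609 bases, which hold a tRNA gene (trnS) on the opposite strand.

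Library totals ran from 41423334 to 60323158 counts with a median of 44010088, and 63.9% to 72.3% of each library fell on chloroplast genes. The most similar pair of libraries, replicates 8 and 9, still differed by more than sampling noise (chi-square over genes divided by its degrees of freedom, 7.88), so the 10 were counted as separate libraries. This check cannot tell libraries of different plants from libraries made of the same material. The rosette label was checked against marker genes. The 4 green leaf markers summed to between 14775 and 17942 CPM (counts scaled to the same library total), whereas none of the 4 root, 3 flower and 2 seed markers exceeded 7 counts in any library, and 3 of the root markers were at 0 throughout.

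In normalized counts, psbC was the most abundant of the 3 transcripts and also the one that varied most between libraries. Levels are given as normalized counts, which are the counts divided by DESeq2 size factors computed over the chloroplast genes. psbD had a normalized count of 206255 ± 23127 (SD, n = 10), with a lowest value of 175512 in replicate 8, a median of 208372 and a highest value of 237428 in replicate 2. psbC had 547223 ± 101762 (SD, n = 10), with 397199 in replicate 4, a median of 572394 and 668435 in replicate 2. psbZ had 19449 ± 2159 (SD, n = 10), with 16303 in replicate 4, a median of 18878 and 23177 in replicate 2. Under this scaling, all 3 genes were highest in the same library, and psbC and psbZ were also lowest in the same one. As a share of the chloroplast counts, psbD and psbZ were instead highest in replicate 10 and lowest in replicate 3, while psbC kept replicates 2 and 4. The highest level was 1.35 times the lowest for psbD, 1.68 times for psbC and 1.42 times for psbZ. The counts themselves were at least 14572 in each library for each gene, and the counting error of a single value was at most 0.828%. Together the 3 genes took 2.49% ± 0.379 of the chloroplast counts (SD, n = 10).

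Per kb of coding length, the order of the levels was psbC, psbD, psbZ in each of the 10 libraries. The normalized count per kb was 384826 ± 71563 for psbC, 194213 ± 21777 for psbD and 102906 ± 11426 for psbZ (SD, n = 10). The ranges did not overlap, since the lowest psbC library stood at 279325 per kb and the highest psbD library at 223567, and the lowest psbD library at 165265 against 122631 for the highest psbZ library. Within a library, psbC was between 1.64 and 2.45 times psbD per coding length, and psbD between 1.72 and 2.25 times psbZ. These levels rest on the RefSeq coding lengths, as the count files give no gene lengths, and psbZ is short against the other genes, which can change how many of its reads are counted.

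**Figure D1:**
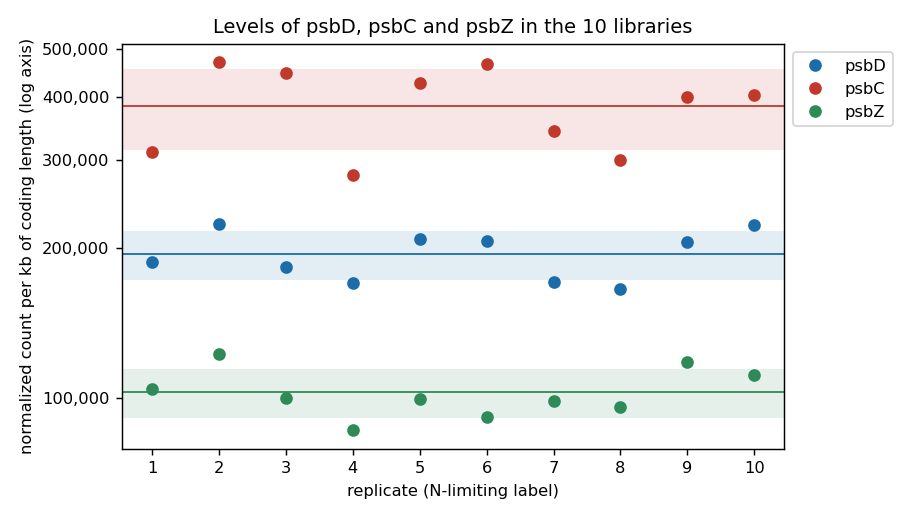
Normalized count per kb of coding length (log axis) of psbD, psbC and psbZ in each of the 10 libraries; lines are means and bands ± 1 SD. The psbC points lie between 279325 and 470066, above those of the other genes, and spread most.

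The coefficient of variation (CV, the SD in percent of the mean) between libraries was 11.2% for psbD, 18.6% for psbC and 11.1% for psbZ. Chloroplast genes that averaged 100 counts or more numbered 128 and had a median CV of 14.4%. Counted from the steadiest gene, psbZ had rank 37, psbD rank 38 and psbC rank 96 among them. Under this scaling, psbD and psbZ varied less than the median chloroplast gene and psbC more. As a share of the chloroplast counts, psbC lay below the median (percentile 44.5) and psbZ above it (percentile 52.3). The other 12 plastid genes of photosystem II in the list used here had CVs from 8.04% to 56.6% with a median of 14.0%, and 3 of them were steadier than psbD or psbZ and 9 steadier than psbC. psbC had the largest CV of the 3 genes without each replicate in turn (10 of 10) and under 4 of 5 other scalings. As a share of the chloroplast counts the order changed, with a CV of 16.1% for psbC against 16.5% for psbD and 17.6% for psbZ.

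**Figure D2:**
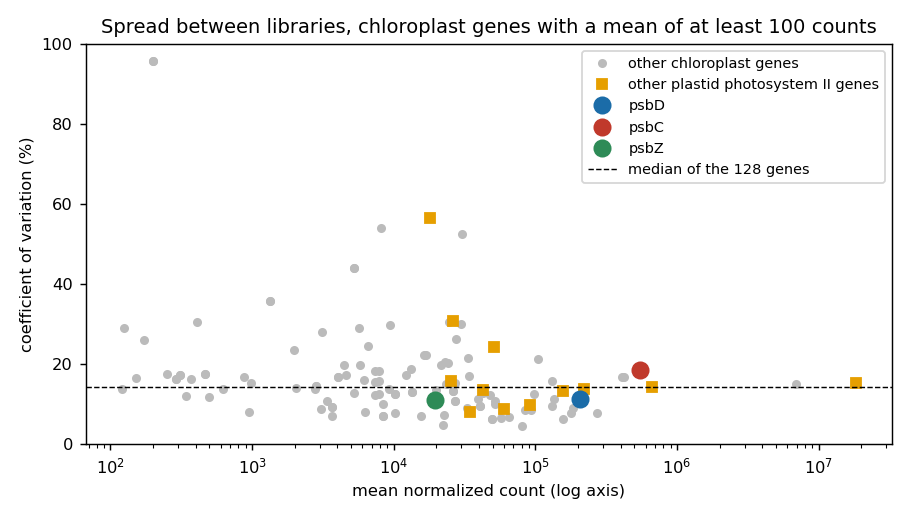
CV between the 10 libraries (y axis, %) against the mean normalized count (x axis, log) of the 128 chloroplast genes that averaged 100 counts or more. psbD and psbZ lie below the dashed median of 14.4% and psbC above it; squares are the other 12 plastid photosystem II genes.

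The ratio of 2 genes within a library needs no scaling, and both ratios with psbC varied more than that of psbZ and psbD. The count of psbC was between 2.20 times (replicate 4) and 3.28 times (replicate 3) that of psbD, a range of 1.49-fold. In log2 terms the psbC/psbD ratio was 1.39 ± 0.19 (SD, n = 10). Its values were 1.14 in replicate 4, 1.15 in replicate 1, 1.28 in replicates 8 and 10, 1.39 in replicate 9, 1.43 in replicate 7, 1.46 in replicate 5, 1.49 in replicate 2, 1.60 in replicate 6 and 1.71 in replicate 3. They formed a continuous series with no gap between groups of libraries. The log2 ratio psbZ/psbC was -4.80 ± 0.25 (SD, n = 10), from -5.26 in replicate 6 to -4.49 in replicate 1. The log2 ratio psbZ/psbD was -3.41 ± 0.13 (SD, n = 10), from -3.66 in replicate 6 to -3.27 in replicate 8. Its SD was the smallest of the 3 without each replicate in turn (10 of 10). The largest counting error of a single log2 ratio was 0.013, so the spread of each ratio was at least 10.5 times the counting error.

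**Figure D3:**
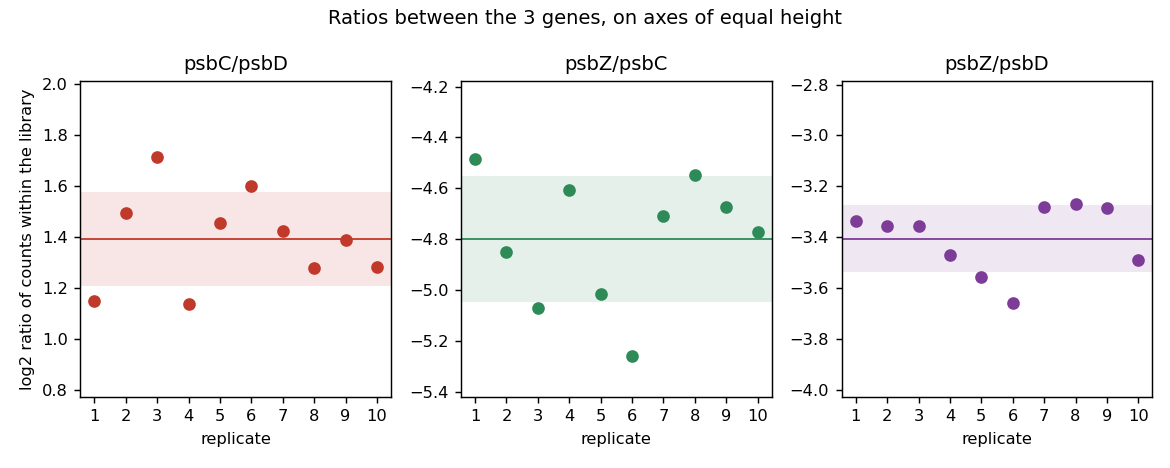
Log2 ratio of counts within each library for psbC/psbD, psbZ/psbC and psbZ/psbD, on axes of equal height; lines are means and bands ± 1 SD. The SD is 0.19, 0.25 and 0.13 from left to right, smallest for psbZ/psbD. psbC, in the other ratios, has the largest CV of the 3 genes in normalized counts, but not as a share of the chloroplast counts.

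psbD was the steadiest partner of psbZ in the chloroplast genome. Of the 127 other genes that averaged 100 counts or more, psbD had the smallest SD of the log2 ratio to psbZ (0.13, against a median of 0.27), and it kept a rank between 1 and 3 without each replicate in turn. psbZ in turn had rank 2 among the partners of psbD (rank 1 to 7 without each replicate in turn), behind ATCG00480 with an SD of 0.11. psbC had rank 20 among the partners of psbD (14 to 30) and rank 54 among those of psbZ (26 to 71). The steadiest partner of psbC was ATCG00680, with an SD of 0.15, and psbD had rank 8 among its partners (2 to 12). ATCG00480 and ATCG00680 are given by identifier because no table used here pairs chloroplast identifiers with names. These ranks were computed after the ratios had been seen and are a description.

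The psbC/psbD ratio rose with the share of a library's counts that fell on chloroplast genes. This relation was looked for after the ratios had been seen, as 1 of 4 such relations, and is given with that reservation. Pearson's r was 0.93 and Spearman's rho 0.90 over the 10 libraries (two-sided permutation test, p = 0.00015 and 0.00086, Benjamini-Hochberg adjusted p = 0.0006 and 0.00344). The libraries of the lowest chloroplast shares, replicate 1 with 63.9% and replicate 4 with 66.5%, had the lowest ratios, and those of the highest, replicate 6 with 71.7% and replicate 3 with 72.3%, the highest. Without replicates 1 and 3, which lie farthest from the median share, r was 0.89, and without each replicate in turn it ran from 0.90 to 0.95. With the 3 genes taken out of the share, r was 0.93. A single gene, ATCG00020, took 35.5% to 44.8% of all counts and so most of each chloroplast share. Relations with the share without this gene, and with its own share, were added as 6 more, adjusted together. Without ATCG00020, r was 0.90 and rho 0.92 (permutation p = 0.00044 and 0.00057, adjusted p = 0.00264 and 0.00276), and r was 0.83 without replicates 1 and 4. The next most abundant chloroplast gene, ATCG00490, stayed in that share. Its mean normalized count was 6889685, against 18278449 for ATCG00020, and its level had r = 0.95 with the full chloroplast share. What ATCG00490 adds to the relation was not tested. With the share of ATCG00020 alone, r was 0.72 and rho 0.62 (permutation p = 0.0186 and 0.0609, adjusted p = 0.0373 and 0.122), and r was 0.58 without replicates 3 and 10. Of the 127 chloroplast genes compared with psbD in this way, psbC had the highest r, also without each replicate in turn, and the median r was -0.16.

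The other ratios were set against the same share, but the 3 ratios are not independent. The log2 ratio psbZ/psbC equals that of psbZ/psbD minus that of psbC/psbD. Its relation with the share is thus not a result separate from that of psbC/psbD. The psbZ/psbC ratio fell as the share rose, with r = -0.84 and rho = -0.83 (permutation p = 0.00192 and 0.00441, adjusted p = 0.00384 and 0.00882), and r was -0.80 without replicates 1 and 3. It was -0.87 with the share without ATCG00020 (rho = -0.90, permutation p = 0.00129 and 0.00092, adjusted p = 0.00387 and 0.00276; r = -0.90 without replicates 1 and 4). With the share of ATCG00020 alone it did not pass (r = -0.59, rho = -0.55, permutation p = 0.0734 and 0.104, adjusted p = 0.11 and 0.157; r = -0.68 without replicates 3 and 10). For psbZ/psbD, r was -0.27 and rho -0.21 (permutation p = 0.449 and 0.561, adjusted p = 0.568 and 0.561), and r was -0.40 without replicates 1 and 3 and 0.07 without replicate 6. It was -0.36 with the share without ATCG00020 and -0.09 with the share of ATCG00020 alone (adjusted permutation p = 0.361 and 0.794). For psbC/psbD with the total counts, r was -0.21 and rho -0.27 (permutation p = 0.568 and 0.448, adjusted p = 0.568 and 0.561), and r was -0.14 without replicates 7 and 10. In bulk samples, fewer chloroplast-rich cells and less chloroplast RNA per cell cannot be told apart, and the share of counts also depends on the depletion of ribosomal RNA, whose part was not tested.

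**Figure D4:**
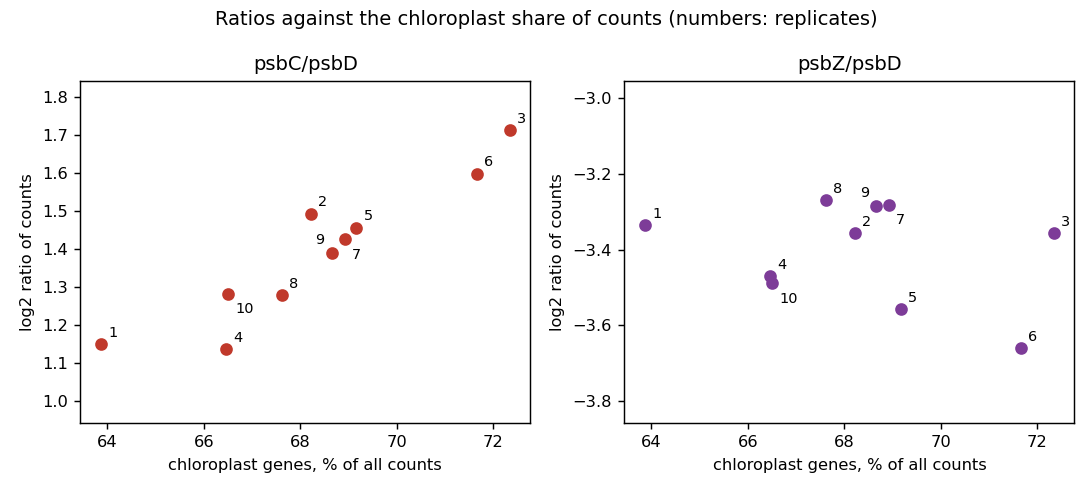
Log2 ratio psbC/psbD (left) and psbZ/psbD (right) against the percent of all counts on chloroplast genes, 1 point per library, numbered by replicate, with y axes of equal height. The psbC/psbD points rise from 1.15 at 63.9% to 1.71 at 72.3%; the psbZ/psbD points show no such order.

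For the normalized levels themselves, 9 relations were listed and adjusted together, with the members scaled on chloroplast genes and SIG5 on nuclear genes. None passed an adjusted p of 0.05 under this scaling. psbD and psbC had r = 0.77 and rho = 0.77 (two-sided permutation p = 0.0146 and 0.0124, adjusted p = 0.12 and 0.112), and r was 0.58 without replicates 4 and 8. psbD and psbZ had r = 0.66 and rho = 0.65 (permutation p = 0.0399 and 0.0475, adjusted p = 0.12 and 0.15), and r was 0.52 without replicates 4 and 8. psbC and psbZ had r = 0.47 and rho = 0.43 (permutation p = 0.174 and 0.219, adjusted p = 0.392 and 0.394), and r was 0.07 without replicates 4 and 8. The scaling decides these calls. With size factors from all genes, which leave the chloroplast content of a library in the values, r was 0.91, 0.80 and 0.75 for the same pairs (adjusted permutation p = 0.00657, 0.0218 and 0.025). Without replicate 3, psbD with psbC also passed on the chloroplast scaling (r = 0.88, adjusted permutation p = 0.0431).

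Between the level of psbC and the chloroplast share, r was 0.67 and rho 0.65 (permutation p = 0.0326 and 0.0502, adjusted p = 0.12 and 0.15), which did not pass the adjustment. It was 0.59 without replicates 1 and 3, and 0.76 with size factors from all genes (adjusted permutation p = 0.025). With psbC as a share of the chloroplast counts it was 0.15, and in CPM 0.35 (adjusted permutation p = 0.692 and 0.363). psbC had rank 27 of the 128 chloroplast genes by this r, psbD rank 58 and psbZ rank 65. psbD had r = 0.09 and rho = 0.14 (permutation p = 0.807 and 0.707, adjusted p = 0.807 and 0.812; r = 0.21 without replicates 1 and 3). psbZ had r = -0.13 and rho = -0.09 (permutation p = 0.712 and 0.812, adjusted p = 0.807 and 0.812; r = -0.11 without replicates 1 and 3). With psbZ as a share of the chloroplast counts r was -0.68, in CPM -0.55 and with size factors from all genes 0.34 (adjusted permutation p = 0.0886, 0.183 and 0.507). For psbD these were -0.59, -0.42 and 0.47 (adjusted permutation p = 0.101, 0.293 and 0.313). Size factors from all genes leave in the values the chloroplast content that the share measures. Under that scaling a positive r with the share is therefore partly built in for all 3 genes. As a share of the chloroplast counts, a gene is divided by the same counts that the chloroplast share measures. A negative r is then partly built in.

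SIG5 (AT5G24120, SIGE in RefSeq) is the nuclear-encoded sigma factor responsible for the light-dependent transcription from the psbD promoter. Its normalized count was 556 ± 121 (SD, n = 10), with 421 in replicate 3, a median of 544 and 849 in replicate 10. No relation with it passed the test. psbD had r = 0.13 and rho = -0.13 (permutation p = 0.744 and 0.734, adjusted p = 0.807 and 0.812). r was -0.61 without replicates 3 and 10, and -0.39 without replicate 10 alone, so replicate 10 sets the sign. As a share of the chloroplast counts, psbD had r = 0.60 with SIG5, and in CPM 0.57 (adjusted permutation p = 0.101 and 0.183). SIG5 kept its nuclear scaling against the shares but was itself in CPM against the CPM values. In CPM both genes are thus divided by the same total, and what this adds to r was not tested. psbC had r = -0.27 and rho = -0.54 with SIG5 (permutation p = 0.466 and 0.114, adjusted p = 0.807 and 0.257; r = -0.53 without replicates 3 and 10). It was 0.19 as a share of the chloroplast counts and -0.12 in CPM (adjusted permutation p = 0.667 and 0.75). psbZ had r = 0.21 and rho = 0.12 (permutation p = 0.572 and 0.761, adjusted p = 0.807 and 0.812; r = -0.03 without replicates 3 and 10). It was 0.60 as a share of the chloroplast counts and 0.65 in CPM (adjusted permutation p = 0.101 and 0.119). The shares of psbD and psbZ were highest in replicate 10 and lowest in replicate 3, and so was SIG5. The r of the shares and of CPM with SIG5 was not computed without these libraries.

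Nuclear genes around the operon were described by Pearson's r with a joint profile, the mean of the standardised log2 levels of the 3 genes over the 10 libraries. These values are a description and carry no p. Of the 12262 nuclear genes that averaged 100 counts or more, 47.8% had r above 0, and the median was -0.02. All 11 listed nuclear subunits of photosystem II had r above 0, from 0.10 to 0.37 with a median of 0.26. Their median ran from 0.16 without replicate 8 to 0.38 without replicate 7, and was 0.56 with size factors from all genes. The highest were PSBY (0.37), a small membrane subunit, and PSBQA (0.33), a subunit of the oxygen-evolving complex. The lowest were PSBR (0.10) and PSBQ-2 (0.14), also of the oxygen-evolving side. These genes share a scaling and a tissue and may vary together, so they cannot be taken as 11 independent genes. How they vary with each other was not tested.

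Of the 20 listed assembly and repair factors of photosystem II, 18 had r above 0, where 47.8% of the 12262 nuclear genes did. The median of the 20 was 0.27. It was 0.17 without replicate 8, 0.41 without replicate 7, 0.47 without replicate 9 and 0.47 with size factors from all genes. The highest were HCF173 (0.65), which is needed for the translation of psbA, the gene of D1, and VAR1 (0.56), a subunit of the FtsH protease that degrades damaged D1. The lowest were LPA1 (-0.14) and ALB3 (-0.06), an assembly factor and a thylakoid membrane insertase. Of the 15 genes of plastid transcription and of the psbD promoter, 13 passed the minimum and 9 of these had r above 0, with a median of 0.07. This median was -0.12 without replicate 10 and 0.26 without replicate 9, so single libraries set its sign and size. The highest were SIGA (0.74), the sigma factor also called SIG1, and PTF1 (0.51), a protein known to bind the light-responsive promoter of psbD. The lowest were the blue light receptor CRY2 (-0.28) and AT5G15700 (-0.23), a phage-type RNA polymerase of the organelles.

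Of the 11 listed chloroplast ribonucleases and RNA-binding proteins, 8 had r above 0, where 47.8% of the 12262 nuclear genes did. The median of the 11 was 0.18. This was 0.10 without replicate 10, 0.11 without replicate 4, 0.37 without replicate 7, 0.47 without replicate 9 and 0.36 with size factors from all genes. CRB (0.50) and CSP41A (0.50), a pair of related RNA-binding proteins of the chloroplast, were highest. The lowest were RNEE/G (-0.45) and emb2746 (-0.42), the chloroplast endonucleases RNase E and RNase J. The 12 other plastid genes of photosystem II split into 7 with r above 0 and 5 below, with a median of 0.28, where 38.4% of the 125 other chloroplast genes had r above 0 and their median was -0.08. The median of the 12 was 0.082 without replicate 4, and with size factors from all genes it was 0.55, against 0.27 for the 125.

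**Figure D5:**
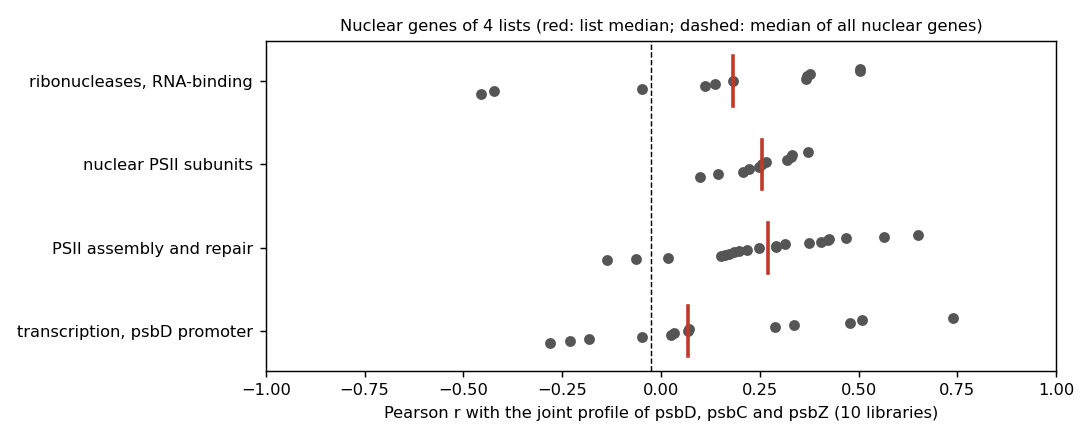
Pearson's r (x axis) of the nuclear genes of 4 lists with the joint profile of psbD, psbC and psbZ over 10 libraries; 1 point per gene, red bars are list medians and the dashed line is the median of all 12262 nuclear genes. The photosystem II subunits lie between 0.10 and 0.37, and the transcription list spreads from -0.28 to 0.74.

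The nuclear genes whose pattern was most like the joint profile were AT4G17520 (r = 0.95), CXIP4 (0.94), AT1G76140 (0.93), SIRANBP (0.91) and EMB1303 (0.91). Their levels were 558 ± 135, 488 ± 55, 405 ± 56, 1101 ± 111 and 147 ± 68 normalized counts, in that order (SD, n = 10). The least like were CBL3 (-0.93), a calcium sensor, AT1G30630 (-0.92), ERD2B (-0.84), ABP1 (-0.84) and ACP1 (-0.83), an acyl carrier protein. They are the ends of a ranking of 12262 genes over 10 libraries. Among the chloroplast genes, ATCG00290 (0.76) and ATCG00480 (0.66) were most like the profile, and ATCG00050 (-0.77) and ATCG01000 (-0.48) least.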

How the data were processed

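The authors deposited raw counts per gene, 1 library per file and without normalization; the submitters' processing notes name STAR and TAIR10 for all 20 samples and featureCounts for 1 of them, and the annotation and the options for reads that fit several genes are not given in the sources used here. Counts were divided by size factors of DESeq2 1.42.0 (R 4.3.3) over chloroplast genes, or over nuclear genes for nuclear genes. Ratios used the undivided counts. Relations between libraries were tested with two-sided permutations (100000 resamples) in Python 3.11.15. Rankings used genes that averaged 100 counts or more and log2 values with a pseudocount of 0.5. The CV and the ranking by r were tested on simulated counts, with a random pattern in place of the joint profile. The permutation test was tested on random normal values, not on counts. Positions, names and the sequence are from RefSeq (TAIR10.1), whose chloroplast sequence of 154478 bases has the length that the study's coordinates span. All 57 listed nuclear genes matched it. Alternatives were size factors from all genes, TMM factors of edgeR 4.0.16, shares of chloroplast counts, CPM, other minimum counts, Spearman's rho and each replicate left out; the relations of the ratios, with and without ATCG00020, were added after the values were seen. The N-sufficient copies were used for no value but the check that they are equal.

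The members, lists and tests were chosen with earlier results of these data known. Named genes are the 3 members, SIG5, the 2 highest and 2 lowest by r of each nuclear list, and the 5 nuclear and 2 chloroplast genes at each end of the ranking. The steadiest partners, ATCG00480 and ATCG00680, and the most abundant chloroplast genes, ATCG00020 and ATCG00490, were added after their values were seen.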

Additional observations from a re-analysis of the deposited data

Results flagged for a closer look

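Of 24 ends of 12 measures checked for a library far from the other 9, 2 passed Dixon's 95% limit of 0.466, and chance alone passes about 1 in 20. Replicate 10 had the highest normalized count of SIG5, 848.9, with a gap to the next library of 0.4661 of the range, just past the limit. Replicate 10 also had the highest total, 60323158 counts, with a gap of 0.533 of the range. No level of psbD, psbC or psbZ and no ratio between them passed.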

How the results depend on the processing

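No paired analysis was possible because the N-sufficient counts are copies of the N-limiting counts, so no comparison between the supplies was run. The cause of the shifts below was not tested. The CV of psbD moved from 11.2% to 14.7% with size factors from all genes, 16.5% as a share of chloroplast counts and 14.8% in CPM; that of psbC moved from 18.6% to 23.4% with size factors from all genes; and that of psbZ moved from 11.1% to 17.6% as a share of chloroplast counts and 15.5% in CPM. The percentile of the CV among chloroplast genes moved, with size factors from all genes, to 44.5 for psbD; as a share of chloroplast counts, to 46.9 for psbD, 44.5 for psbC and 52.3 for psbZ; and in CPM, to 56.3 for psbC and 48.4 for psbZ. With size factors from all genes, psbD with psbC (r = 0.91), psbD with psbZ (0.80), psbC with psbZ (0.75) and psbC with the chloroplast share (0.76) passed the threshold, and the r of psbZ with the share turned to 0.34. These factors leave the chloroplast content in the values, so a positive r with the share is partly built in. psbD with psbZ also passed as a share of chloroplast counts (0.86) and in CPM (0.82). As a share of chloroplast counts, psbC with SIG5 turned to 0.19 and psbD with the chloroplast share to -0.59, and the latter to -0.42 in CPM. Dividing by the chloroplast counts partly builds in a negative r with the chloroplast share. With size factors from all genes, the median r with the joint profile of the other chloroplast genes turned to 0.27, and those of the nuclear and the other plastid photosystem II genes moved to 0.56 and 0.55. With the share of ATCG00020 in place of the chloroplast share, psbZ/psbC did not pass (-0.59).

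Without each replicate in turn, r ran from 0.72 to 0.88 for psbD with psbC, from -0.015 to 0.26 for psbD and from -0.34 to 0.035 for psbZ with the chloroplast share, from -0.39 to 0.27 for psbD with SIG5 and from -0.42 to 0.071 for psbZ/psbD with the chloroplast share. The counts behind the 3 genes are large, so depth limits none of their values, and the number of libraries limits the relations.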

Other observations

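The identifiers next to the operon were checked as 1 more list, since nearby chloroplast genes on the same strand can share transcripts. Of the RefSeq genes after psbC, trnS, trnfM and rps14 lie on the opposite strand and trnG on the same strand. Which identifiers these genes have is not given in the sources used here, so the list does not test for shared transcripts. Of the 8 identifiers from ATCG00230 to ATCG00330 that are not members, 7 passed the minimum of 100 counts. Only ATCG00290, whose identifier lies between those of psbC and psbZ, had r above 0 with the joint profile (0.76), and the other 6 lay below 0, down to -0.46, with a median of -0.16 over the 7, which ran from -0.28 without replicate 9 to -0.057 without replicate 8. ATCG00290 had a normalized count of 6213 ± 998 (SD, n = 10), from 4940 to 7905. With size factors from all genes, which leave the chloroplast content in the values, the median of the 7 moved to 0.25. Reads of genes that lie on opposite strands can be told apart only where counting used the strand, which the sources used here do not state.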
